A study of Rattus norvegicus with 12 samples.

Results

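The genes described here encode the constitutive proteasome, the protease that degrades ubiquitin-tagged proteins in the cytosol and nucleus of nearly every cell. They were taken as all genes whose symbol is Psma, Psmb, Psmc or Psmd followed by a number, without the interferon-inducible subunits Psmb8, Psmb9 and Psmb10, and only from probe sets annotated to exactly 1 gene symbol. This gave 33 of the 14217 genes on the array, read by 44 of 31042 probe sets. Of the 33, 13 belong to the core particle (7 of the alpha ring, 6 of the beta ring), 17 to the regulatory particle (6 ATPases, 3 further proteins of the base, 8 of the lid) and 3 are chaperones that assemble the base. The rule uses symbols and annotation and no measured value, but it was set with earlier results of these data known. Psmb6, a catalytic subunit, is read here through 1 probe set that is also annotated to Psmb6l1, so it is not among the 33.

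RNA was measured on Affymetrix expression arrays in organotypic hippocampal slice cultures, slices of the hippocampus of postnatal day 7 Wistar rats kept on inserts until day 26 in vitro. The 4 groups were 7B12, 11C7, IgG and NT, with 3 arrays each. 7B12 and 11C7 are function-blocking monoclonal antibodies against Nogo-A, a membrane protein of oligodendrocytes and some neurons known for restricting axon growth. The epitope of 7B12 spans amino acids 763 to 820 of Nogo-A and that of 11C7 amino acids 623 to 640. 7B12, 11C7 or a control IgG was present at 3 µg/ml from day 21 for 5 days, and NT cultures had no antibody. Each array held RNA of 24 pooled cultures, and per the labels the replicates were prepared independently, from different animals. A slice holds neurons, glia and vessel cells together, so in every comparison fewer cells of a type and less RNA per cell cannot be told apart.

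A proteasome has a barrel-shaped core particle, whose outer alpha rings gate entry and whose inner beta rings carry the cutting sites, and a regulatory particle that caps the barrel. The base of the regulatory particle binds ubiquitin chains and, with its ring of ATPases, unfolds the substrate and threads it into the barrel, while the lid removes the ubiquitin. Interferon induces Psmb8, Psmb9 and Psmb10, which take the places of the constitutive catalytic subunits Psmb5, Psmb6 and Psmb7 in newly built particles. In neurons, proteasome activity is known to take part in synaptic protein turnover.

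The deposited values are ratios of each probe set to its own reference, so they compare arrays and carry no absolute level, and whether a labelled cell type was present cannot be read from them. Each value below is on the log2 scale: the array median was subtracted from the log2 ratio, and the probe sets of a gene were averaged. The arrays differed by the replicate number in their titles: the mean of 10 neuron markers was -1.11 to -1.74 in the 4 arrays numbered 1, against 0.41 to 1.24 in those numbered 2 and -0.13 to 0.22 in those numbered 3. The mean of 10 interferon-response genes was 1.17, 1.15 and 2.69 in 7B12 arrays 1 to 3, 1.28, 0.22 and -0.07 in 11C7 arrays, -0.19, -0.47 and -0.31 in IgG arrays and -0.38, -0.34 and -0.52 in NT arrays. Array 1 of 11C7 stood apart from the other 2 arrays of its group in these genes, so counts are also given without it. It was left out for its interferon-response values and has no part in the comparison of 7B12 with the controls. There its removal leaves the changes as they are and alters only the estimate of the spread. Lower p values of interferon-response genes in those counts follow in part from that choice and are no support. Other marker lists differed between groups as well, with no test made. The mean of 6 fibroblast markers was 0.44, 1.63 and -0.04 in 7B12 arrays, against -0.91 to 0.51 in the control arrays, and 6 of 6 had a change above 0 with 7B12 (median 0.81) and 1 of 6 with 11C7. The mean of 5 measured blood cell markers was -0.19 to 0.01 in 7B12 arrays and -0.98 to 0.05 in 11C7 arrays, against -1.62 to -0.54 in the control arrays, and 5 of 5 had changes above 0 with each antibody (medians 0.56 and 0.75). The mean of 5 measured endothelial markers was -1.42 to -0.16 in 7B12 arrays, against -1.05 to 0.56 in the control arrays, and 1 of 5 had a change above 0 with 7B12 (median -0.45). That of 6 oligodendrocyte precursor markers was -0.07, -0.14 and -0.20 in 7B12 arrays, below all 6 control arrays (-0.03 to 0.19). Of these markers 1 of 6 had a change above 0 with 7B12 (median -0.25) and 3 of 6 with 11C7. Of 8 measured myelin markers, 3 had a change above 0 with 7B12 (median -0.15) and 7 with 11C7 (median 0.14), and 0 of 8 were higher in 7B12 than in 11C7. The arrays numbered 1 also had Gapdh 3-prime less 5-prime differences of -0.15 to -0.17, against -0.12 to 0.09 in the other 8 arrays. For Actb these differences were -0.24 to -0.16 in the arrays numbered 1 and -0.20 to 0.33 in the other 8. For hexokinase they were -0.13 to 0.15 and -0.20 to 0.14, so Actb and hexokinase overlapped where Gapdh did not. The part of these differences in the results below was not tested.

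No constitutive proteasome gene passed the test for a difference from the controls under either antibody. In 7B12 cultures the median log2 change over the 33 genes, against the mean of IgG and NT, was 0.03 (-0.004 on the values as deposited), with single genes from -0.13 to 0.29. In 11C7 cultures the median change was 0.10, with single genes from -0.49 to 0.36, values of Psmb5 and Psmc4, whose probe sets diverge. Over all 14217 genes the median change was 0.01 for 7B12 and 0.03 for 11C7. By limma with Benjamini-Hochberg adjustment over all genes, 0 of the 33 passed an adjusted p of 0.05 for 7B12, for 11C7 or for both antibodies together, as did 0 of 14217 genes, a background of 0% in each. At an unadjusted p under 0.05 the counts were 0 of 33 for each as well, beside 6.05% of all genes for 7B12, 2.99% for 11C7 and 4.89% for both. With the replicate number added to the fit as a block, 1 of 33 was below 0.05 for each. The shares of all genes were then 11.8%, 5.99% and 9.90%. Without array 1 of 11C7, 19 genes passed the adjusted threshold for 7B12, and 0 of them were among the 33, while 0 genes passed for 11C7.

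**Figure D1:**
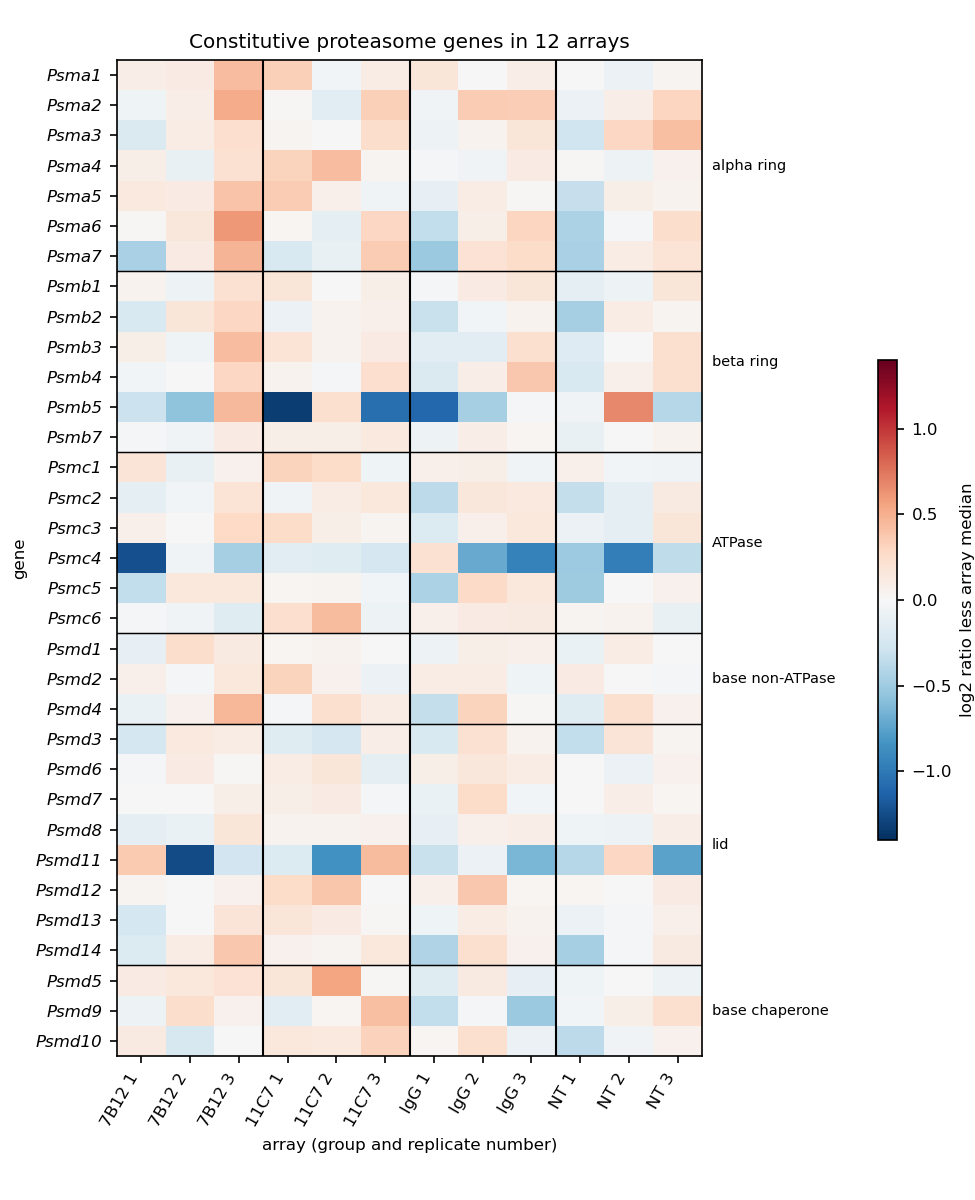
Log2 values (colour, log2 ratio less array median) of the 33 constitutive proteasome genes (rows, grouped by role) in the 12 arrays (columns, 3 per group, named by group and replicate number). The arrays numbered 1 of IgG and NT are mostly blue, array 3 of 7B12 is mostly red, and the strongest colours belong to Psmb5, Psmc4 and Psmd11, genes whose probe sets diverge.

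The array medians showed where the members lay. The median log2 value over the 33 genes was -0.03, 0.01 and 0.20 in 7B12 arrays 1 to 3, 0.06, 0.05 and 0.07 in 11C7 arrays, -0.12, 0.10 and 0.06 in IgG arrays and -0.10, 0.01 and 0.06 in NT arrays. Array 3 of 7B12 was the highest of the 12, and the other 8 antibody and control arrays outside IgG 1, NT 1 and 7B12 1 lay between 0.01 and 0.10. In array 3 of 7B12, 30 of the 33 genes were above 0, beside 52.5% of all genes. In array 1 of NT 7 of 33 were, beside 48.7% of all genes, and in array 1 of IgG 8 of 33, beside 49.3%. In 7B12, 23 of the 33 genes had a change above 0, beside 52.1% of all genes, and in 11C7 28 of 33 did, beside 56.1% of all genes. The median change in 7B12 was -0.02 without array 3 of 7B12 and 0.14 without array 1 of 7B12, so its sign was not settled.

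Set against the IgG and NT arrays of the same replicate number, the members differed from number to number. For 7B12 the median difference over the 33 genes was 0.11 in number 1, -0.05 in number 2 and 0.13 in number 3. For 11C7 it was 0.23 in number 1, 0.0027 in number 2 and -0.02 in number 3. In 11C7 the genes above the controls of their number were thus 31 of 33 in number 1, 18 in number 2 and 15 in number 3. Number 1 is the 11C7 array with the high interferon-response values. The share of all genes above the controls of their number was not counted. In array 1 of 11C7 53.8% of all genes were above 0, against 49.3% in array 1 of IgG and 48.7% in array 1 of NT.

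Among the 13 core particle genes, 12 had a change above 0 with 7B12 and 10 with 11C7, with median changes of 0.08 and 0.09, and 0 passed the test. The core median was -0.03, 0.09 and 0.40 in 7B12 arrays 1 to 3, 0.05, 0.01 and 0.11 in 11C7 arrays, -0.12, 0.08 and 0.17 in IgG arrays and -0.18, 0.07 and 0.17 in NT arrays. Array 3 of 7B12 lay above every other array in this median, while arrays 1 and 2 of 7B12 lay within the range of the control arrays.

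The alpha ring subunits close the barrel and hold the surface on which the regulatory particle docks. Psma5 had the largest test statistic of the members for 7B12: it read 0.13, 0.12 and 0.40 in 7B12 arrays, 0.35, 0.07 and -0.05 in 11C7 arrays, -0.12, 0.10 and 0.02 in IgG arrays and -0.32, 0.09 and 0.05 in NT arrays. All 3 arrays of 7B12 lay above all 6 control arrays, the highest of which was 0.10, while the 11C7 arrays overlapped the controls. Such separation of 7B12 from the controls, in either direction, was found for 1 of 33 members, beside 3.6% of all genes. The change of Psma5 with 7B12 was 0.25 ± 0.15 (SE), a fold of 1.19, with a 95% interval of -0.09 to 0.59 on the log2 scale (limma, unadjusted p = 0.134, adjusted p = 0.979), and it was 0.16 without array 3 of 7B12. Psma1 read 0.09, 0.12 and 0.43 in 7B12 arrays, 0.33, -0.04 and 0.10 in 11C7 arrays, 0.17, 0.00 and 0.09 in IgG arrays and -0.0030, -0.08 and 0.04 in NT arrays. Its change was 0.18 ± 0.13 with 7B12 (unadjusted p = 0.210) and 0.07 without array 3 of 7B12, and its groups overlapped.

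Psma4 was highest in 11C7, with 0.08, -0.10 and 0.21 in 7B12 arrays, 0.31, 0.43 and 0.04 in 11C7 arrays, -0.03, -0.05 and 0.11 in IgG arrays and 0.01, -0.07 and 0.06 in NT arrays. Arrays 1 and 2 of 11C7 lay above every control array and array 3 lay among them. The change with 11C7 was 0.26 ± 0.13 (unadjusted p = 0.080, adjusted p = 1.00), and it was 0.17 without array 2 of 11C7 and 0.37 without array 3. Psma2 and Psma3, also of the alpha ring, were among the members with the lowest test statistics. Psma2 read -0.06, 0.09 and 0.52 in 7B12 arrays, 0.01, -0.15 and 0.33 in 11C7 arrays, -0.05, 0.36 and 0.34 in IgG arrays and -0.08, 0.09 and 0.31 in NT arrays. Psma3 read -0.20, 0.11 and 0.24 in 7B12 arrays, 0.04, 0.0089 and 0.24 in 11C7 arrays, -0.07, 0.05 and 0.17 in IgG arrays and -0.27, 0.29 and 0.42 in NT arrays. Both overlapped the controls in both antibody groups, with changes of 0.02 ± 0.18 and -0.05 ± 0.18 for 7B12 and of -0.10 ± 0.18 and -0.00085 ± 0.18 for 11C7.

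Of the beta ring genes, Psmb1, Psmb2, Psmb3 and Psmb4 encode subunits without a cutting site, and Psmb5 and Psmb7 encode the chymotrypsin-like and trypsin-like sites. Psmb7 was the steadiest of the 33 genes: it read -0.03, -0.04 and 0.12 in 7B12 arrays, 0.08, 0.08 and 0.13 in 11C7 arrays, -0.07, 0.09 and 0.02 in IgG arrays and -0.10, 0.01 and 0.05 in NT arrays. Its residual SD between arrays of a group was 0.073, at percentile 0.253 of the residual SDs of all genes. The change of Psmb7 was 0.01 ± 0.11 with 7B12, a 95% interval of 0.85- to 1.19-fold, and 0.10 ± 0.11 with 11C7, an interval of 0.91- to 1.27-fold. Psmb1 to Psmb4 had changes between 0.03 and 0.18 with 7B12 and between 0.03 and 0.12 with 11C7, each with an unadjusted p above 0.3.

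Psmb5 is read by 3 probe sets that did not follow one another. Its average was -0.30, -0.56 and 0.46 in 7B12 arrays, -1.33, 0.22 and -1.06 in 11C7 arrays, -1.10, -0.46 and -0.03 in IgG arrays and -0.05, 0.68 and -0.40 in NT arrays. This is the widest spread among the members, with a residual SD of 0.62, and gave a change of -0.49 ± 0.41 with 11C7 (unadjusted p = 0.258), which was -0.19 without array 1 of 11C7 and -0.96 without array 2. The steadiest of the 3 probe sets alone read 0.07, 0.06 and 0.21 in 7B12 arrays, 0.17, -0.02 and 0.05 in 11C7 arrays, -0.04, -0.0046 and 0.26 in IgG arrays and -0.13, 0.10 and 0.06 in NT arrays. On that probe set the change was 0.07 for 7B12 and 0.03 for 11C7, so the negative value for 11C7 rests on the other two, whose residual SDs were 1.22 and 1.4 against 0.12. Psmc4, an ATPase, and Psmd11, a lid scaffold, each have 1 widely spread probe set as well, with a residual SD of 0.96 beside a steady 0.13 for Psmc4 and of 1.71 beside 0.17 and 0.22 for Psmd11. The deposited ratios of these had medians of 0.533 and 0.4275 over the 12 arrays, below the usual 1. The changes of Psmc4 were -0.04 ± 0.31 with 7B12 and 0.36 ± 0.31 with 11C7, and those of Psmd11 were -0.07 ± 0.40 and 0.12 ± 0.40. On its steady probe set alone Psmc4 had changes of 0.10 with 7B12 and 0.08 with 11C7, against -0.18 and 0.64 on the other. The 3 probe sets of Psmd14, by contrast, had residual SDs of 0.17, 0.20 and 0.49 and were all below 0 in the arrays numbered 1 of 7B12, IgG and NT.

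**Figure D2:**
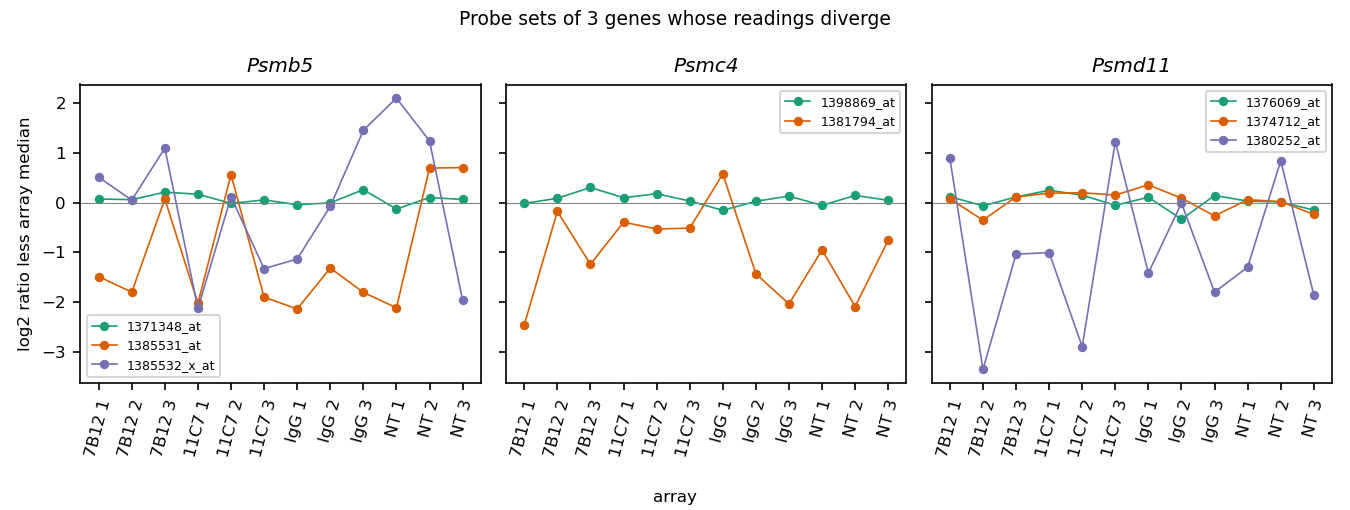
Log2 values (vertical axis, log2 ratio less array median) of each probe set of Psmb5, Psmc4 and Psmd11 in the 12 arrays (horizontal axis, ordered 7B12, 11C7, IgG, NT). One steady line per gene, 2 for Psmd11, lies near 0, while the other probe sets swing by more than 2 units between arrays of the same group.

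The inducible counterparts had larger changes than any member with 7B12, and none of them passed the adjusted threshold. The interferon-response list had a median change of 1.99 with 7B12 (10 of 10 above 0), and the fibroblast and blood cell lists had median changes above 0. The endothelial, oligodendrocyte precursor and myelin lists had median changes below 0 with 7B12. The part of these lists in the changes of the inducible genes was not tested. Psmb9 read 0.84, 0.96 and 1.59 in 7B12 arrays, 1.37, 0.02 and -0.06 in 11C7 arrays, 0.02, -0.30 and 0.15 in IgG arrays and 0.04, -0.27 and 0.07 in NT arrays. All 3 arrays of 7B12 and array 1 of 11C7 lay above the 6 control arrays. The change was 1.18 ± 0.32 with 7B12, a fold of 2.27 (unadjusted p = 0.0042, adjusted p = 0.489), and 0.49 ± 0.32 with 11C7, which was 0.03 without array 1 of 11C7. Psmb8 read 0.82, -0.11 and 1.68 in 7B12 arrays, 0.72, -0.70 and 0.23 in 11C7 arrays, -0.27, -1.10 and 0.56 in IgG arrays and -0.29, -1.24 and 0.47 in NT arrays. Within each replicate number the 7B12 array was the highest for Psmb8, although the groups overlapped, and its change of 1.11 ± 0.54 had an unadjusted p of 0.067 and was 0.67 without array 3 of 7B12. Psmb10 read 0.21, 0.34 and 0.81 in 7B12 arrays, 0.39, -0.18 and -0.06 in 11C7 arrays, -0.53, -0.33 and 0.30 in IgG arrays and -0.46, -0.36 and 0.13 in NT arrays. Its groups overlapped through array 3 of IgG, and it had a change of 0.66 ± 0.24 with 7B12 (unadjusted p = 0.021, adjusted p = 0.669). Without array 1 of 11C7 the adjusted p of Psmb9 with 7B12 was 0.079, while its change stayed at 1.18, as only the estimate of the spread differed. These genes were known from earlier results on the same arrays to be high in 7B12, so their values here are no independent evidence.

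Per array, the inducible subunit less its constitutive counterpart shows how far each pair moved apart. Psmb10 less Psmb7 was 0.24, 0.39 and 0.70 in 7B12 arrays, 0.31, -0.26 and -0.19 in 11C7 arrays, -0.46, -0.43 and 0.27 in IgG arrays and -0.36, -0.37 and 0.09 in NT arrays. Arrays 2 and 3 of 7B12 lay above the highest control array, which was array 3 of IgG, and array 1 of 7B12 lay just below it. The mean difference between 7B12 and the controls was 0.65 (exact permutation test, two-sided, p = 0.0476, adjusted p = 0.201 over 6 comparisons), where 3 arrays against 6 cannot give a p below 0.0238. As Psmb7 changed by 0.01 with 7B12, that difference is nearly the change of Psmb10 alone, 0.66. The pair tests use inducible genes known to be high in these 7B12 arrays, so they are no independent evidence either. For 11C7 it was 0.16 (exact p = 0.476). Psmb8 less Psmb5 differed by 1.02 for 7B12 (exact p = 0.143, adjusted p = 0.224) and by 0.89 for 11C7 (exact p = 0.333), and with the steadiest probe set as the reading of Psmb5 these were 1.04 and 0.37. When 1 array was left out, the difference of Psmb8 less Psmb5 lay between 0.65 (without array 2 of NT) and 1.25 (without array 2 of 7B12) for 7B12, and between 0.27 (without array 1 of 11C7) and 1.75 (without array 2 of 11C7) for 11C7. None of the 6 comparisons passed after adjustment. The pair Psmb9 and Psmb6 was not compared, because Psmb6 has no probe set with 1 symbol.

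**Figure D3:**
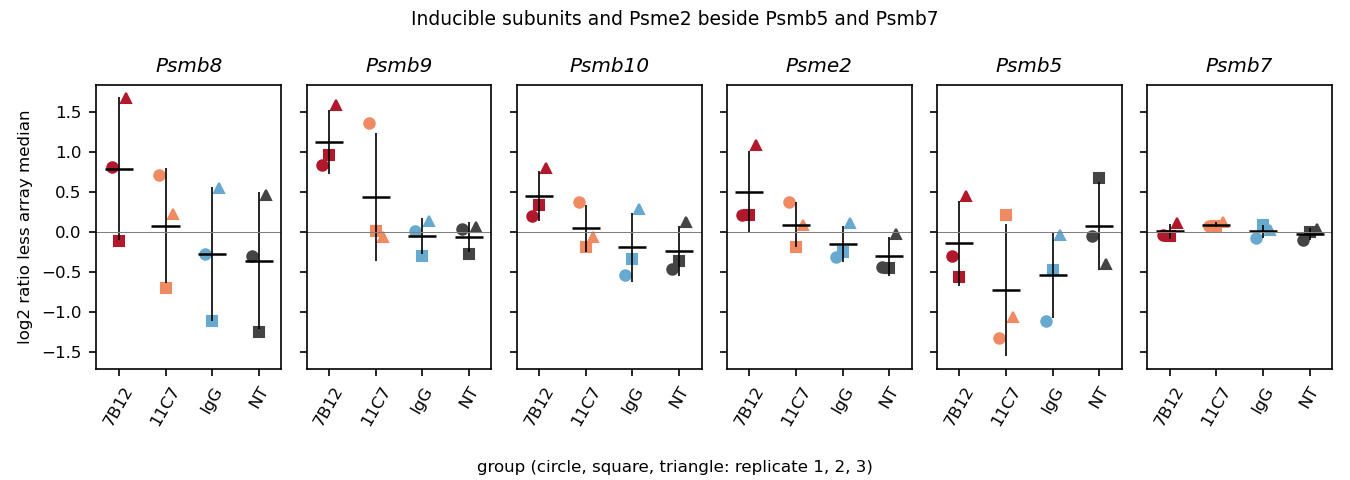
Log2 values (vertical axis, log2 ratio less array median) of Psmb8, Psmb9, Psmb10 and Psme2, all inducible by interferon, beside the constitutive Psmb5 and Psmb7, by group (horizontal axis). Points are arrays (circle, square and triangle for replicates 1, 2 and 3), the horizontal bar is the group mean and the vertical line is 1 SD on each side (n = 3). The 7B12 means of Psmb9, 1.13, and Psmb10, 0.46, lie above both control means, and the Psmb7 means of all groups lie between -0.01 and 0.10.

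Among the 17 regulatory particle genes, 9 had a change above 0 with 7B12 and 15 with 11C7, with median changes of 0.01 and 0.09, and 0 passed the test. The median log2 value of the particle was -0.09, 0.00 and 0.12 in 7B12 arrays, 0.06, 0.08 and 0.0029 in 11C7 arrays, -0.09, 0.12 and 0.05 in IgG arrays and -0.08, 0.00 and 0.06 in NT arrays. All 4 groups overlapped in this median.

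The 6 ATPases form the ring that unfolds substrates and opens the gate. With 11C7 all 6 had changes above 0, from 0.08 to 0.36, and with 7B12 4 of 6 did. The 0.36 is that of Psmc4, whose steady probe set gave 0.08 with 11C7 and 0.10 with 7B12. Psmc6 was the member with the lowest test statistic for 7B12, with -0.02, -0.05 and -0.17 in 7B12 arrays, 0.23, 0.44 and -0.07 in 11C7 arrays, 0.07, 0.12 and 0.13 in IgG arrays and 0.04, 0.05 and -0.10 in NT arrays. The 7B12 arrays lay below 5 of the 6 control arrays, apart from array 3 of NT, which lay below arrays 1 and 2 of 7B12. The change was -0.13 ± 0.13 with 7B12 (unadjusted p = 0.353) and 0.15 ± 0.13 with 11C7, and the difference of 7B12 less 11C7 was -0.28 ± 0.15 (unadjusted p = 0.10, adjusted p = 1.00), and -0.16 without array 2 of 11C7. The 3 probe sets of Psmc6 did not all follow one another, and their residual SDs were 0.26, 0.26 and 0.32. Psmc1, Psmc2, Psmc3 and Psmc5 had changes of 0.03 to 0.12 with 7B12 and of 0.08 to 0.16 with 11C7.

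In the base, Psmd1 and Psmd2 are scaffolds and Psmd4 is a ubiquitin receptor. Psmd1 had a change of 0.07 ± 0.12 with 7B12 and 0.0095 ± 0.12 with 11C7, Psmd2 one of 0.02 ± 0.13 and 0.06 ± 0.13, and Psmd4 one of 0.13 ± 0.19 and 0.08 ± 0.19. The lid holds Psmd14, the metalloprotease that cuts off the ubiquitin chain, its partner Psmd7, and scaffold proteins. With 7B12, 2 of the 8 lid genes had changes above 0, and with 11C7 6 of 8 did. Psmd14 read -0.19, 0.10 and 0.38 in 7B12 arrays, 0.06, 0.04 and 0.15 in 11C7 arrays, -0.42, 0.23 and 0.06 in IgG arrays and -0.47, -0.03 and 0.13 in NT arrays. Its changes were 0.18 ± 0.20 with 7B12 and 0.16 ± 0.20 with 11C7, and the groups overlapped.

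Psmd12 and Psmd3 were the lid genes named for low test statistics. Psmd12 read 0.04, -0.0016 and 0.06 in 7B12 arrays, 0.26, 0.39 and -0.01 in 11C7 arrays, 0.07, 0.38 and 0.03 in IgG arrays and 0.03, 0.00 and 0.12 in NT arrays, with a change of -0.07 ± 0.13 for 7B12 that was -0.02 without array 2 of IgG. Psmd3 read -0.24, 0.14 and 0.10 in 7B12 arrays, -0.16, -0.23 and 0.09 in 11C7 arrays, -0.21, 0.21 and 0.05 in IgG arrays and -0.35, 0.18 and 0.04 in NT arrays, with a change of -0.09 ± 0.17 for 11C7 that was -0.02 without array 2 of 11C7. Both genes overlapped the controls. The lid genes Psmd6, Psmd7, Psmd8 and Psmd13 had changes of -0.03 to -0.02 for 7B12 and of -0.01 to 0.09 for 11C7, with residual SDs of 0.097 to 0.13. Psmd7 is the average of 2 probe sets that ran opposite over the arrays (r = -0.44). Their residual SDs were 0.21 and 0.17 and their changes with 7B12 were 0.06 and -0.09.

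Psmd5, Psmd9 and Psmd10 are not part of the finished proteasome but bind the ATPases while the base is assembled. Psmd5 had the smallest p of the 33 genes for 11C7 and for both antibodies together. It read 0.11, 0.14 and 0.20 in 7B12 arrays, 0.17, 0.55 and 0.01 in 11C7 arrays, -0.17, 0.13 and -0.12 in IgG arrays and -0.06, 0.01 and -0.07 in NT arrays. Arrays 2 and 3 of 7B12 and arrays 1 and 2 of 11C7 lay above the highest control array, array 2 of IgG. All 6 antibody arrays lay above the mean of IgG and NT of their own number, which also held for Psma1 and Psmb2. The share of all genes with this pattern was not counted. The change was 0.20 ± 0.14 with 7B12 (unadjusted p = 0.198), 0.29 ± 0.14 with 11C7 (unadjusted p = 0.069) and 0.24 ± 0.12 for both (unadjusted p = 0.063, adjusted p = 1.00). Leaving out array 2 of 11C7 gave 0.14 for 11C7, and leaving out array 3 gave 0.41.

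Psmd10, also known as gankyrin, read 0.12, -0.22 and 0.00 in 7B12 arrays, 0.15, 0.14 and 0.33 in 11C7 arrays, 0.03, 0.23 and -0.08 in IgG arrays and -0.37, -0.05 and 0.06 in NT arrays. All 3 arrays of 7B12 lay below all 3 of 11C7, a separation found for 1 of 33 members, beside 7.15% of all genes in either direction. The difference of 7B12 less 11C7 was -0.24 ± 0.17 (unadjusted p = 0.191) and -0.14 without array 2 of 7B12, and the change with 11C7 against the controls was 0.24 ± 0.15 (unadjusted p = 0.138). Psmd9 read -0.07, 0.24 and 0.06 in 7B12 arrays, -0.14, 0.03 and 0.42 in 11C7 arrays, -0.35, -0.02 and -0.52 in IgG arrays and -0.04, 0.08 and 0.22 in NT arrays. Its changes were 0.18 ± 0.17 with 7B12 and 0.20 ± 0.17 with 11C7. The low reading of array 3 of IgG came from 1 of its 2 probe sets, at -1.29. On that probe set the changes were 0.34 with 7B12 and 0.48 with 11C7, against 0.02 and -0.07 on the other, steadier one.

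Between the antibodies, 0 of 33 genes passed the test and 0 had an unadjusted p under 0.05, beside 0% and 3.69% of all genes. With the replicate number as a block, 1 of 33 had an unadjusted p under 0.05, beside 8.23% of all genes. The median difference of 7B12 less 11C7 was -0.02, and 13 of the 33 genes were above 0, beside 48.8% of all genes. This median was -0.11 without array 3 of 7B12 and 0.02 without array 1 of 7B12, so its sign was not settled either. The core particle had 9 of 13 genes higher in 7B12 and the regulatory particle 4 of 17, with median differences of 0.03 and -0.04. After Psmb5, the members with the highest test statistics were Psma6, with a difference of 0.20 ± 0.25, and Psma2, with 0.12 ± 0.21, and that of Psma4 was -0.20 ± 0.15. Each rested in part on 1 array: Psma6 was at 0.03 and Psma2 at -0.05 without array 3 of 7B12, and Psma4 at -0.12 without array 2 of 11C7.

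The control antibody likewise gave 0 of 33 genes past the threshold against NT and 0 at an unadjusted p under 0.05, beside 0% and 1.91% of all genes. The median difference of IgG less NT was 0.04, and 25 of 33 genes were above 0, beside 49% of all genes. This median was -0.02 without array 1 of NT and 0.11 without array 1 of IgG, so its sign was not settled. The smallest p belonged to Psmd9, with -0.39 ± 0.20 (unadjusted p = 0.078). That difference was -0.04 on the steadier probe set of Psmd9 and -0.73 on the other. Psmb5 had -0.61 ± 0.47, which was 0.06 on its steadiest probe set. Psmd6 read -0.03, 0.12 and 0.02 in 7B12 arrays, 0.10, 0.17 and -0.13 in 11C7 arrays, 0.08, 0.16 and 0.10 in IgG arrays and 0.0030, -0.08 and 0.06 in NT arrays. Psmd10 had 0.18 ± 0.17, Psmd6 0.12 ± 0.13 and Psmc6 0.11 ± 0.15, where Psmd10 was at 0.06 without array 1 of NT and Psmc6 at 0.06 without array 3 of NT. The IgG arrays lay above all 3 NT arrays in 2 of the 33 genes, Psmc6 and Psmd6, beside 4.19% of all genes in either direction. For Psmc6 this held only for the average of its 3 probe sets, and in each of them alone IgG overlapped NT. An F test over all 4 groups gave 0 of 33 genes at an unadjusted p under 0.05, beside 3.63% of all genes, with a smallest member p of 0.188.

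A p that misses the threshold does not show that a gene is the same in both groups, and the intervals give the sizes that these arrays could not separate from 0. With 7B12 the 95% interval lay within 1.5-fold of the controls in either direction for 26 of the 33 genes, and with 11C7 for 27. The same held for 30.7% and 32.2% of all genes. An interval within 1.2-fold, the limit in the authors' design text, was reached by 1 gene for 7B12 and by 0 for 11C7. Changes of that size could thus not be excluded for most members in this fit, which has no block for the replicate number. The fitted change itself passed 1.2-fold for 1 gene with 7B12, Psma6, at 0.29, and for 3 with 11C7, namely Psmb5, Psmc4 and Psmd5, beside 37.4% and 32.2% of all genes. On their steadiest probe sets the changes of Psmb5 and Psmc4 with 11C7 were 0.03 and 0.08. In the analysis of variance over the 4 groups named in the design text, the smallest p of a member was 0.141.

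**Figure D4:**
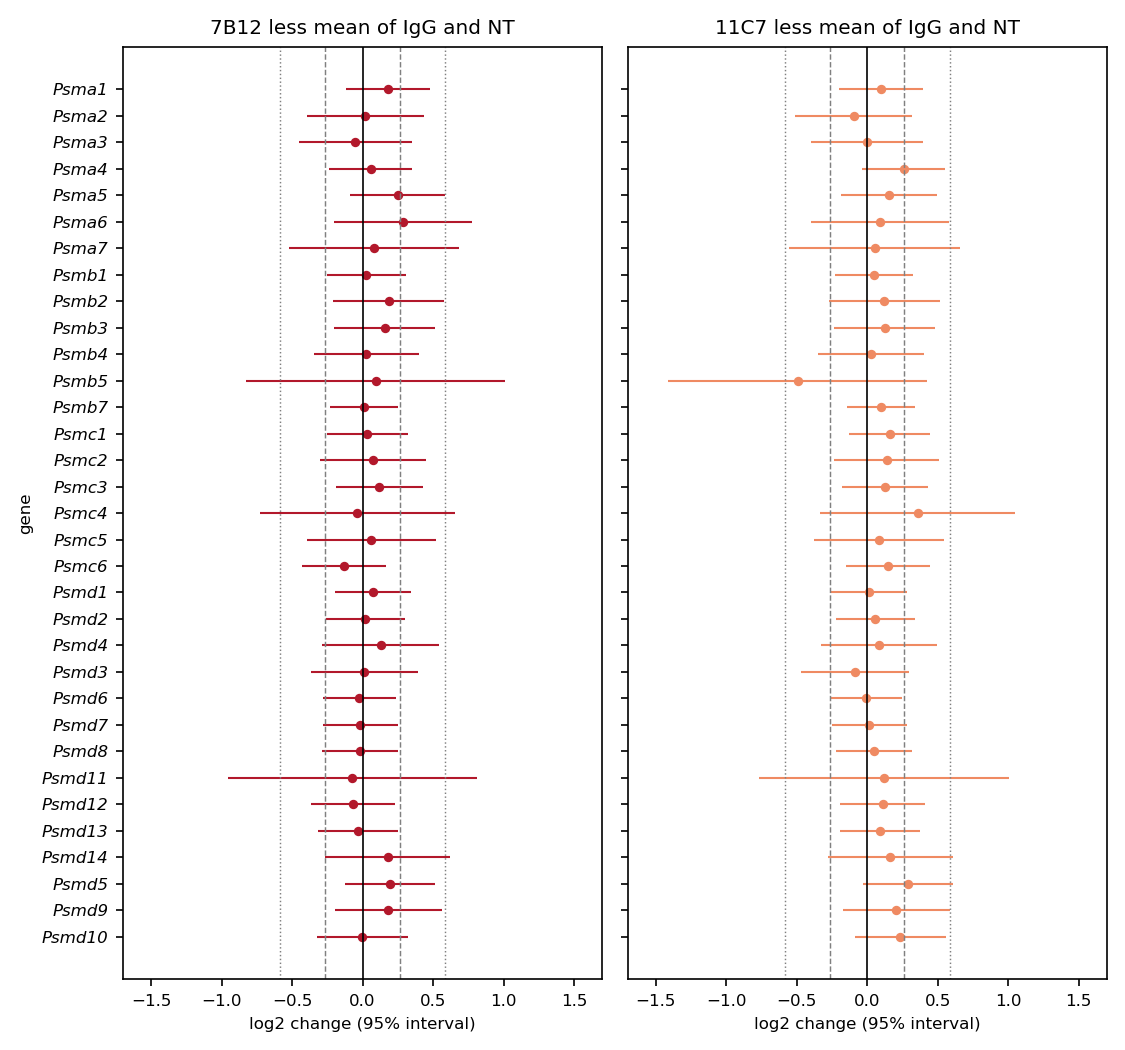
Log2 change (horizontal axis) of each of the 33 genes (rows) in 7B12 (left) and 11C7 (right) against the mean of IgG and NT, with its 95% interval from limma. Dashed and dotted lines mark 1.2-fold and 1.5-fold in either direction, and every interval includes 0. The widest intervals belong to Psmb5, Psmd11 and Psmc4.

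The spread between arrays was small for these genes. The residual SD between arrays of a group had a median of 0.18 over the 33 genes, from 0.073 for Psmb7 to 0.62 for Psmb5, against a median of 0.39 over all genes. The members also tended to be high or low in the same arrays. Over the 12 arrays the median Pearson r between 2 members was 0.30, against 0.01 between a member and another gene, and it was 0.40 against 0.03 after the means of groups and replicate numbers were taken off. The arrays share their replicate-number differences and members of one complex were set against genes of all kinds, so these values are a description only.

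Differences among the replicate numbers passed the test for a few proteasome genes. By limma's F test of the number beside the group, 3 of 33 genes passed an adjusted p of 0.05, or 9.09%, beside 23.6% of all genes, and 11 of 33 had an unadjusted p under 0.05, beside 39.2% of all genes. The count of 3 lay between 0 without array 1 of NT and 6 without array 1 of 11C7. In 20 of the 33 genes the arrays numbered 1 had the lowest mean, beside 36.8% of all genes. What the number stands for beyond separate cultures is not given in the sources used here.

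The 3 genes were Psma7, Psma6 and Psmb2, all of the core particle. Psma7 read -0.46, 0.11 and 0.47 in 7B12 arrays 1 to 3, -0.22, -0.10 and 0.36 in 11C7 arrays, -0.52, 0.20 and 0.26 in IgG arrays and -0.46, 0.10 and 0.19 in NT arrays. In each of the 4 groups array 1 was the lowest and array 3 the highest (adjusted p = 0.012). Psma6 read 0.01, 0.16 and 0.61 in 7B12 arrays, 0.03, -0.14 and 0.29 in 11C7 arrays, -0.35, 0.08 and 0.30 in IgG arrays and -0.44, -0.02 and 0.25 in NT arrays, with array 3 the highest in each group (adjusted p = 0.031). Psmb2 read -0.22, 0.17 and 0.29 in 7B12 arrays, -0.08, 0.05 and 0.07 in 11C7 arrays, -0.32, -0.03 and 0.05 in IgG arrays and -0.46, 0.11 and 0.04 in NT arrays, with array 1 the lowest in each group (adjusted p = 0.044). Psmb4 came next. It read -0.04, 0.0094 and 0.29 in 7B12 arrays, 0.05, -0.03 and 0.23 in 11C7 arrays, -0.20, 0.09 and 0.38 in IgG arrays and -0.22, 0.07 and 0.22 in NT arrays, with array 3 the highest in each group and means of -0.10, 0.04 and 0.28 over the arrays numbered 1, 2 and 3 (adjusted p = 0.057). Of the 12 fits that left out 1 array, the adjusted p was above 0.05 in 9 for Psma6, in 10 for Psmb2 and in 1 for Psma7. Cell type markers differed among the numbers too. The mean of 8 measured myelin markers lay between -0.86 and -0.50 in the arrays numbered 1. It lay between -0.08 and 0.29 in those numbered 2 and between 0.23 and 0.71 in those numbered 3. Psma7, Psma6, Psmb2 and Psmb4 had the same order of means. The mean of 10 microglia markers was highest in number 3, with means of -0.08, -0.33 and 0.54 over numbers 1, 2 and 3. Neuron markers and the Gapdh 3-prime less 5-prime difference were lowest in number 1, as given above, and neuron markers were highest in number 2. The Actb and hexokinase differences of number 1 overlapped those of the other arrays. The part of these markers in the differences among numbers was not tested.

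**Figure D5:**
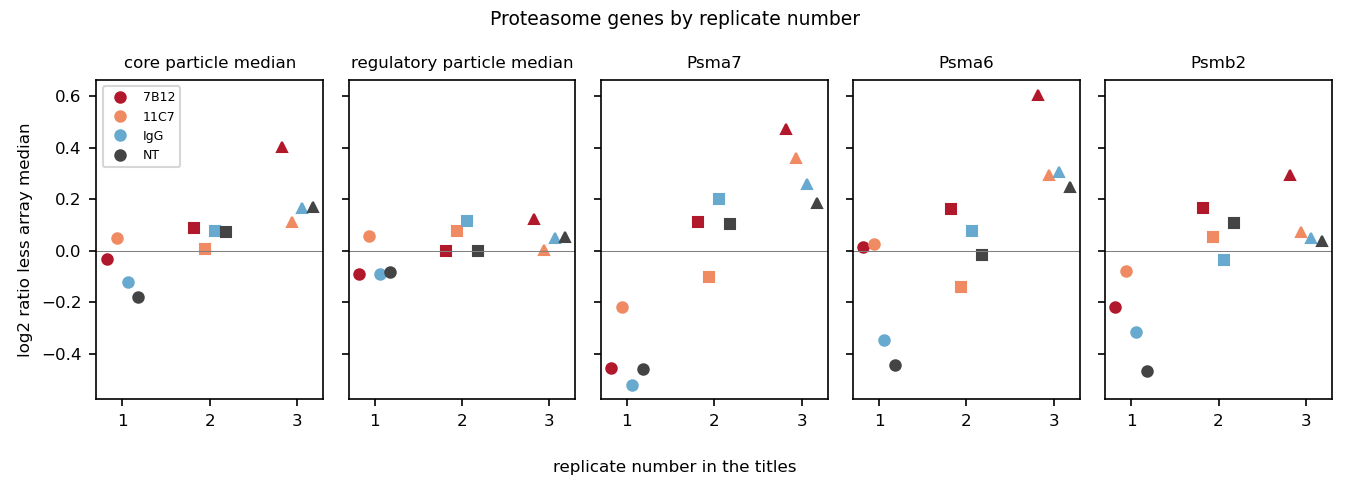
Log2 values (vertical axis, log2 ratio less array median) by replicate number (horizontal axis) for the medians of the core and the regulatory particle and for Psma7, Psma6 and Psmb2, with 1 point per array coloured by group. Psma7 lies between -0.52 and -0.22 in the arrays numbered 1 and between 0.19 and 0.47 in those numbered 3, while the regulatory particle median stays between -0.09 and 0.12.

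The promoters of Psma6 and Psmb2, members that differed among numbers, are shown beside those of the catalytic genes Psmb7 and Psmb5. Psmb7 and Psmb5 did not pass the test of the replicate number. Psma7, which passed it and held in more of the fits that left out 1 array, had no window. The windows run from 250 bases before to 50 bases after the gene start (RefSeq, rat build GRCr8). Capitals mark the motifs searched on both strands: CCAAT, bound by the NF-Y complex (ATTGG on the other strand), GGGCGG, a GC box (CCGCCC on the other strand), and TGACNNNGC, the core of the antioxidant response element to which Nfe2l1 and Nfe2l2, regulators of proteasome genes, are known to bind. The Psma6 window (chr6:78514097-78514396, plus strand) and the Psmb2 window (chr5:144254808-144255107, plus strand) come first, followed by the Psmb7 window (chr3:42827421-42827720, minus strand) and the Psmb5 window (chr15:32047330-32047629, minus strand), each given 5′ to 3′.
Psma6: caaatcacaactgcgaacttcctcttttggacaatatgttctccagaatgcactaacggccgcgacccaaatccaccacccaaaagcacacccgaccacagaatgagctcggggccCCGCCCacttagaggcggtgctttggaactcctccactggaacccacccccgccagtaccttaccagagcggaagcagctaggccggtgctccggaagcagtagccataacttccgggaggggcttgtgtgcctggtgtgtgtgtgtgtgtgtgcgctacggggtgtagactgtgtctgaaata
Psmb2: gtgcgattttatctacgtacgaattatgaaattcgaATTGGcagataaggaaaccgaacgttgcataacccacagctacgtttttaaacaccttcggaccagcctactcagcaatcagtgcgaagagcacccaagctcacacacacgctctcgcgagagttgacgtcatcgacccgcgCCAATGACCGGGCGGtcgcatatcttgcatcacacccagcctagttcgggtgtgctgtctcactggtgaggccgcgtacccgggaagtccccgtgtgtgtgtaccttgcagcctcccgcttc
Psmb7: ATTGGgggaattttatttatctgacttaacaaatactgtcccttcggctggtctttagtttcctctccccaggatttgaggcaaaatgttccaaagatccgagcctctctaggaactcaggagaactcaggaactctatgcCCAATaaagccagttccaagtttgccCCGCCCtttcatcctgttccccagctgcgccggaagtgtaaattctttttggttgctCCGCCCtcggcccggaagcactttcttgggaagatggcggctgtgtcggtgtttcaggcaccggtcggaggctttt
Psmb5: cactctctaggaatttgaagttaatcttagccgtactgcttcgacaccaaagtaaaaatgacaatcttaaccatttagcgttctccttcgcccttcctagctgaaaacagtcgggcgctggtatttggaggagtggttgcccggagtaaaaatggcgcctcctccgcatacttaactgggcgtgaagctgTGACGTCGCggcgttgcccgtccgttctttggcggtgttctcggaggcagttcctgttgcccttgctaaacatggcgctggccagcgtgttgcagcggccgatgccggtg

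In the Psmb2 window a CCAAT from 72 to 68 bases before the start runs into a TGACNNNGC match from 68 to 60 bases before it, which in turn overlaps a GGGCGG from 63 to 58 bases before it. The Psmb5 window holds a TGACNNNGC match from 60 to 52 bases before the start and neither other motif. The Psmb7 window holds 2 GC boxes and 2 CCAAT matches, and the Psma6 window 1 GC box. Windows were given for 29 of the 33 genes. CCAAT was found in 16 of 29, or 55.2%, beside 37.7% of all 27457 windows, GGGCGG in 20 of 29, or 69.0%, beside 34.9%, and TGACNNNGC in 6 of 29, or 20.7%, beside 12.2%. The 6 were Psma3, Psmb2, Psmb5, Psmd1, Psmd3 and Psmd9. These are matches of letters and say nothing of binding in these cultures.

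A wider list of 39 genes around the proteasome had 31 measured, of which 0 passed the adjusted threshold in any comparison. With 7B12, 3 of 31 were higher and 0 lower at an unadjusted p under 0.05, beside 3.91% and 2.14% of all genes, and with 11C7 0 were. The 3 were Psmb9 and Psmb10, described above, and Psme2, a subunit of the interferon-inducible cap that can replace the regulatory particle. As Psmb9 and Psmb10 were known to be high in 7B12, the count of 3 is no independent evidence. Psme2 read 0.22, 0.21 and 1.09 in 7B12 arrays, 0.38, -0.18 and 0.09 in 11C7 arrays, -0.31, -0.24 and 0.12 in IgG arrays and -0.43, -0.44 and -0.02 in NT arrays. All 3 arrays of 7B12 lay above the 6 control arrays, and the change was 0.73 ± 0.23 (unadjusted p = 0.012, adjusted p = 0.622). Without array 3 of 7B12 it was 0.44. Its partner Psme1 had a change of -0.34 ± 0.42 with 7B12 and -0.74 ± 0.42 with 11C7. The 5 measured chaperones of core particle assembly, among them Pomp, had changes of 0.03 to 0.20 with 7B12 and of 0.06 to 0.16 with 11C7. Nfe2l1, the factor that raises proteasome genes when the proteasome is blocked, had a change of 0.27 ± 0.21 with 7B12 and 0.18 ± 0.21 with 11C7, and Nfe2l2 one of 0.20 ± 0.21 and 0.18 ± 0.21. The 5 measured shuttles and unfoldase genes had a median change of 0.0046 with 7B12 and -0.0012 with 11C7.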

How the data were processed

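RNA of 12 pooled slice culture samples (4 groups of 3, groups and numbers from the sample titles) was read on Affymetrix arrays. The submitters' processing notes name GCOS 1.4 and MAS5, and what the authors deposited is 1 ratio for each probe set and array. The design text names a normalization per array and per gene to the control median, but 76.4% of probe sets had a median of 1 (within 0.0015) across the 12 arrays and 11.2% across the 6 controls, which leaves the reference unsettled. A constant reference leaves log2 differences between groups unchanged.

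From the deposited ratios, log2 values less the array median were computed over 31042 probe sets (57 controls left out), and probe sets with 1 symbol were averaged per gene (14217 genes). The fit was limma 3.58.1 in R 4.3.3 (lmFit with 1 mean per group over 12 arrays, then eBayes), two-sided, with Benjamini-Hochberg adjustment over all genes and a threshold of 0.05; ± gives the standard error. Exact permutation tests used scipy 1.17.1. The fit was tested on simulated data. Arrays have no read depth, so their number limits the precision. Genes given with full values are, per contrast, the 3 members with the highest and the 3 with the lowest moderated t, any member past the threshold, the catalytic subunits, the 4 members with the smallest p for the replicate number, and wider-list genes with an unadjusted p under 0.05; further members were chosen after their values were seen. The members, lists and tests were chosen with earlier results of these data known.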

Additional observations from a re-analysis of the deposited data

How the results depend on the processing

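The alternatives left out each array in turn, with and without a block for the replicate number, and tried other probe set choices, the values as deposited, quantile normalization, a variance trend, array weights, IgG or NT alone as the control and the methods' analysis of variance. In the fits that left out arrays or used the block, 0 of the 33 genes passed the adjusted threshold in any contrast between groups. When 1 array was left out, the genes called lay between 0 and 19 for 7B12 and between 0 and 1 for 11C7 and for both antibodies. The 19 came without array 1 of 11C7. The smallest-SD probe set per gene gave 1 gene for IgG against NT. The methods' analysis of variance with 1.2-fold, unadjusted, gave 362 genes for 7B12, 322 for 11C7, 333 for both, 224 for IgG against NT and 354 for 7B12 against 11C7, with 0 members, and 0 genes after Benjamini-Hochberg adjustment. The median change of the 33 genes lay between -0.022 and 0.142 for 7B12 and between 0.066 and 0.118 for 11C7 when 1 array was left out.

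Same-numbered arrays had correlated deviations from their group means across genes, with r of 0.0969 to 0.427 and 17 of 18 pairs over 0.1, against -0.321 to 0.0944 for other pairs. As 1 pair was below 0.1, the main fit does not pair the arrays by number. Every same-numbered pair nevertheless lay above every other pair. Differences among the numbers thus stay in the spread of the main fit and enter its standard errors, intervals and p values. With the replicate block, 0 genes were called in each contrast. At an unadjusted p under 0.05 it gave 1 of 33 members for 7B12, for 11C7, for both and for 7B12 against 11C7. The shares of all genes were 11.8%, 5.99%, 9.90% and 8.23%. For IgG against NT it gave 0 of 33, beside 3.42%. With the block and 1 array left out, calls lay between 0 and 133 for 7B12, between 0 and 1 for 11C7 and between 0 and 49 for 7B12 against 11C7. The 133 and the 49 came without array 1 of 11C7, and the 133 hold Psmb8 (adjusted p = 0.036) and Psmb9 (adjusted p = 0.035). The changes of Psmb8 and Psmb9 with 7B12 were 1.11 and 1.18 there, as with all arrays. Over the fits with the block and 1 array left out, the median change of the 33 genes lay between -0.0053 and 0.091 for 7B12 and between 0.0031 and 0.140 for 11C7.

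Small changes turned sign. When 1 array was left out, Psma3 lay between -0.155 and 0.076 for 7B12 and between -0.304 and 0.041 for IgG less NT. Psma2 lay between -0.230 and 0.012 for 11C7, between -0.122 and 0.023 for both and between -0.049 and 0.251 for 7B12 less 11C7, and Psmd3 between -0.113 and 0.023 for both. Psmb10 less Psmb7 lay between -0.016 and 0.267 for 11C7, the lowest without array 1 of 11C7. With the block as well, Psmd12 was 0.0054 for 7B12 and Psmb5 0.041 for both without array 2 of 7B12. Without array 2 of 11C7, that fit gave 0.017 for Psma2 and 0.070 for Psmd3 for 11C7, and 0.019 for Psma2 and 0.041 for Psmd3 for both. It gave 0.023 for Psma2 without array 2 of IgG and 0.000595 for Psmd3 without array 2 of NT, for both. By its steadiest probe set, Psmb5 was 0.028 for 11C7, 0.050 for both and 0.059 for IgG less NT. For both antibodies, Psmb5 was 0.105 with IgG alone as the control and Psma2 0.018 with NT alone. The causes were not tested. The F test over groups gave 0 to 1 genes when 1 array was left out, and the test of the replicate number 1352 to 3485 genes and 0 to 6 members, alternatives chosen after the data were seen.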

Other observations

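A pair of probe sets outside the 33 genes read members or their close copies. The probe set annotated to both Psma3 and Psma3l lay between -0.06 and 0.45 in the 6 antibody arrays and between -0.32 and 0.18 in the 6 control arrays. The one annotated to both Psmb6 and Psmb6l1 lay between -0.13 and 0.65 in the antibody arrays and between -0.26 and 0.71 in the control arrays, so both overlapped the controls.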
